A study of Mus musculus with 12 samples.

Results

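The genes described here are Arc and 8 further genes of the early transcriptional response: Npas4, Ier2, Ier3, Btg2, Zfp36, Dusp1, Dusp6 and Socs3. Products of several of them, such as Zfp36, Dusp1 and Socs3, feed back on that response. All 9 genes were chosen by name, as a list of gene symbols, with earlier results of these data known. Each was found among the 24490 genes listed for dorsal root ganglion (DRG) of the mouse. RNA-Seq was performed on 12 samples of DRG from adult C57Bl/6 mice, with 4 biological replicates in each of 3 groups that shared strain and age and carried no transgene or drug in the labels. Each intact sample held the ganglia of 1 mouse, snap frozen without dissociation. Each unsorted sample held ganglia of 2 mice that had been digested with enzymes for 30 min at 37 °C and triturated. Each MACS-sorted sample held neurons of 8 mice that were dissociated in the same manner and then passed through a magnetic column that retained non-neuronal cells tagged with antibodies. Values are FPKM, read fragments scaled to transcript length and to the total of mapped fragments, so levels of different genes are set side by side per length.

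Immediate early genes are transcribed within minutes of a stimulus, such as depolarisation, growth factor, cytokine or cell stress, without need of new protein. Part of this first wave encodes proteins that end the response: phosphatases that switch off mitogen-activated protein kinases (MAPK), proteins that speed decay of the new transcripts, and inhibitors of cytokine receptor signalling. Arc and Npas4 belong to the same wave in neurons, where they are driven by synaptic activity and calcium entry.

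In build mm10, in which the values were made, the 9 protein-coding genes were listed at chr15:74669081-74672570 for Arc, chr19:4984355-4989971 for Npas4, chr8:84661331-84662852 for Ier2, chr17:35821713-35822911 for Ier3, chr1:134074865-134079155 for Btg2, chr7:28376784-28379228 for Zfp36, chr17:26505591-26508472 for Dusp1, chr10:99263231-99267489 for Dusp6 and chr11:117966087-117969366 for Socs3.

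Promoter sequence from RefSeq (build GRCm38.p6) was held for 7 of the 9 genes, all but Arc and Ier2. The 250 bases before the start of transcription are printed for Btg2 and Dusp1, which carried a full cAMP response element (CRE, TGACGTCA), for Zfp36 and Socs3, which carried a gamma-activated site (GAS, TTCNNNGAA), and for Ier3, which differed from the others in its pattern over the groups. Capitals mark the CRE in Btg2 and Dusp1, the CArG box and then the GAS in Zfp36, the GAS in Socs3 and the NF-kB site in Ier3. All are written 5′ to 3′ on the strand of the gene.
Btg2, chr1:134079156-134079405, minus strand: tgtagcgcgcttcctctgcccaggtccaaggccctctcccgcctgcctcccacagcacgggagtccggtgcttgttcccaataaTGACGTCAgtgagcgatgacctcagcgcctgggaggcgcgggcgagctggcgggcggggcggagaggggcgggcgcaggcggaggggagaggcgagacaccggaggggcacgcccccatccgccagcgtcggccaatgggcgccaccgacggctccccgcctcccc
Dusp1, chr17:26508473-26508722, minus strand: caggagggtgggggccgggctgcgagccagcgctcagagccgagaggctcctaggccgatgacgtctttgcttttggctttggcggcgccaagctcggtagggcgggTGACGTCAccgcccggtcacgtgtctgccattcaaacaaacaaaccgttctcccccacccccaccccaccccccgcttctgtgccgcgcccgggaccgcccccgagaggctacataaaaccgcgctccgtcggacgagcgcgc
Zfp36, chr7:28379229-28379478, minus strand: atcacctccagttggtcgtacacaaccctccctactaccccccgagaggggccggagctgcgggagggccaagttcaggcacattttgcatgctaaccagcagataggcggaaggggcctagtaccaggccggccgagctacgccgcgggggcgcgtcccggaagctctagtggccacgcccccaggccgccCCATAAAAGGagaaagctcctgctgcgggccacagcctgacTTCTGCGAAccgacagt
Socs3, chr11:117969367-117969616, minus strand: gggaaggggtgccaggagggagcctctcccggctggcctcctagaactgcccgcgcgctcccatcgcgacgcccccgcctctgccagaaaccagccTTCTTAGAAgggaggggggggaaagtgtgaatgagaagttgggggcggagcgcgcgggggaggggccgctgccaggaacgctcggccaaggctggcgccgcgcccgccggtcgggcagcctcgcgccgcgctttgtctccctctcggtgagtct
Ier3, chr17:35821463-35821712, plus strand: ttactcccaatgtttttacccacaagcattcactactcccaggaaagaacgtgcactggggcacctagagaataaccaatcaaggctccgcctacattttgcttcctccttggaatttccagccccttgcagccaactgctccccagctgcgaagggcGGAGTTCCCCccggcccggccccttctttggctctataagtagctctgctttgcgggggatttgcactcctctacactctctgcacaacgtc

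Both strands were searched for 8 short motifs. The full CRE began 166 bases before the start of Btg2 and 143 bases before that of Dusp1, and 1.55% of all 32851 promoters in the table held it. The shorter CRE half-site TGACG, which the full element contains on both strands, occurred in Btg2, Dusp1 and Npas4 and in 17.8% of all promoters. A CArG box, the element bound by serum response factor, lay 58 bases before the start of Zfp36, and 1.47% of promoters held one. The GAS, to which STAT factors bind, was present in Zfp36 and in Socs3, 17 and 154 bases before the start, compared with 7.02% of all promoters. Ier3 and Npas4 held an NF-kB site, present in 7.25% of promoters, and a TATA box (TATAA), present in 22.8%. The EGR site GCGNGGGCG was found in Btg2, Zfp36 and Socs3 and in 4.7% of promoters. These promoters were 73.2%, 64.8% and 71.6% G and C, compared with a median of 52.4% over all promoters. The shares given are not matched for this content. None of the 7 promoters held the AP-1 site TGANTCA, found in 6.75% of promoters, and the promoter of Dusp6 held no motif of the 8.

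Sample composition, read from marker genes, bears on the values that follow. Summed levels of 7 skeletal muscle markers were 2850 FPKM in intact replicate 1 and 76.6 to 117 FPKM in the other intact samples, and intact replicate 1 was the highest intact sample for 7 of the 9 genes and for 44.9% of the 12461 expressed genes. Summed levels of 7 red blood cell markers were 1678 to 15360 FPKM in the MACS-sorted samples, with Hba-a1 listed at 0 in all samples, compared with 112 to 737 FPKM in the other groups. In MACS-sorted samples the 8 satellite glia markers summed to 90.1 to 199 FPKM (unsorted, 2169 to 2730 FPKM). The 8 markers of large-diameter neurons summed to 94.2 to 174 FPKM there (unsorted, 875 to 1069 FPKM). Schwann cell, fibroblast, macrophage and skeletal muscle sums also lay below the unsorted range. The 8 general neuronal markers, such as Tubb3, did so too, at 3801 to 4918 FPKM (unsorted, 5440 to 6034 FPKM). Their sums in intact DRG were 4096 to 4790 FPKM. Such sums weigh the most abundant markers most and are not counts of cells. By staining, the paper found a larger share of neurons in sorted than in unsorted preparations. Endothelial sums overlapped between sorted (16.2 to 89.8 FPKM) and unsorted samples (52.7 to 66.4 FPKM). Sums for neutrophils and for pericytes and smooth muscle overlapped too. Nociceptor sums were higher after sorting, at 3079 to 4270 FPKM (unsorted, 2696 to 2817 FPKM). Intact DRG differed from unsorted DRG as well. Below the unsorted range were intact sums of general neuronal, large-diameter neuron (612 to 796 FPKM), satellite glia (1699 to 2064 FPKM) and endothelial markers (27.6 to 30.1 FPKM). Fibroblast (499 to 948 FPKM) and macrophage sums (33.8 to 68.8 FPKM) in intact DRG lay above the unsorted range. Sums of the remaining lists overlapped between intact and unsorted DRG. In RNA of whole tissue or mixed cells, fewer cells of a type and less RNA per cell cannot be told apart.

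In unsorted DRG most of these genes were several fold above intact DRG, with Zfp36, Socs3, Ier2 and Btg2 in front, whereas Ier3 and Dusp6 did not pass the test. A total of 5 of the 8 genes tested were called higher and 0 lower, compared with 4.29% of all 12392 genes called higher and 2.76% called lower. A gene was called when its Benjamini-Hochberg adjusted p (limma) was below 0.05, its group means differed by more than 0.5 on the log2 scale and its mean exceeded 5 FPKM in the higher group. The 4 unsorted samples lay above all 4 intact samples for 6 of the 8 tested genes, compared with 20.8% of the 12392 genes tested. MACS-sorted samples were also above intact DRG: 6 of the 7 genes tested were called higher and 0 lower, against 7.54% and 10.7% of all 12234 genes. Between MACS-sorted and unsorted samples, 1 of 8 genes tested was called higher (Ier3) and 0 lower, where 8.15% and 12.5% of all 12038 genes were called. At an unadjusted p below 0.05 (limma), 2 genes were lower there, Arc and Dusp6, and against intact DRG 0 were lower in either comparison. The comparisons share samples, so their values are given side by side and are not independent of each other. Unsorted samples differed from intact ones in dissociation, cell mixture and mice pooled. MACS-sorted samples differed from unsorted ones in sorting, cell mixture and mice pooled, and from intact ones in dissociation as well. The parts of these in any higher or lower level cannot be told apart.

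**Figure D1:**
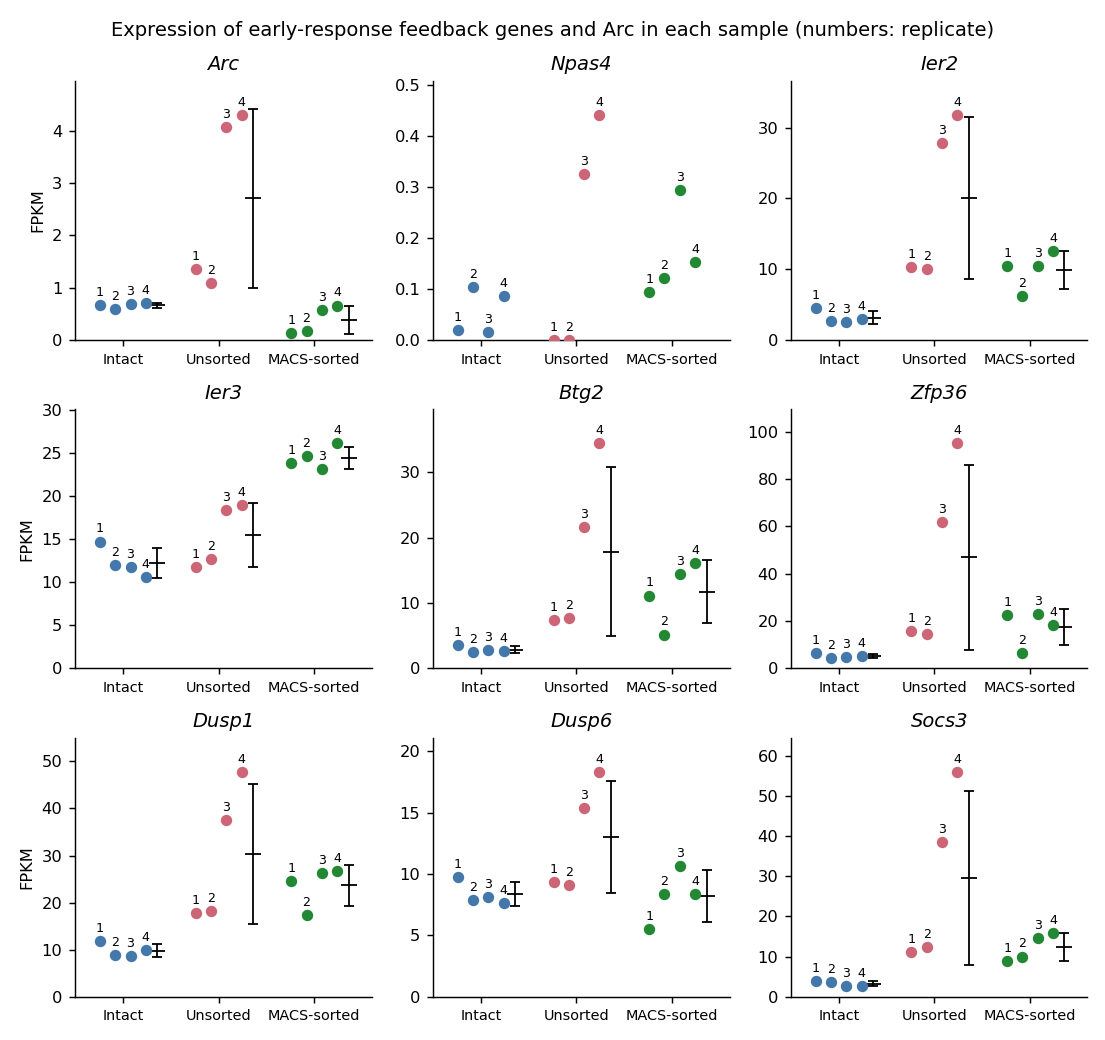
FPKM (linear axis from 0, own scale for each gene) of the 9 genes in each intact, unsorted and MACS-sorted sample, with replicate numbers above the points and the mean ± SD beside each group of 4, except for Npas4, which was listed at 0 in 2 samples. In every panel unsorted replicates 3 and 4 are the 2 highest of the unsorted points, and the 4 MACS-sorted points for Ier3 lie together between 23.1 and 26.1 FPKM.

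Arc, which encodes a cytoskeleton-associated protein of neurons that acts at synapses, was low in all groups. It was measured at 0.669, 0.593, 0.685 and 0.703 FPKM in intact replicates 1 to 4, at 1.36, 1.09, 4.07 and 4.31 FPKM in unsorted samples, and at 0.126, 0.174, 0.576 and 0.657 FPKM in MACS-sorted samples. All unsorted samples exceeded all intact and all MACS-sorted samples, and the intact and MACS-sorted ranges overlapped. The log2-fold change was 1.64 ± 0.42 (SE) in unsorted against intact DRG (limma, adjusted p = 0.0258) and -2.49 ± 0.57 in MACS-sorted against unsorted samples (limma, adjusted p = 0.00529). With a pseudocount of 1 FPKM in place of 0.1 the 2 values were 1.03 and -1.32. Neither was called, because the mean of 2.71 FPKM in the higher group was below 5 FPKM. The adjusted p against intact DRG rose above the threshold, to between 0.0507 and 0.0693, when any of intact replicates 2, 3 or 4 or unsorted replicates 3 or 4 was left out. MACS-sorted and intact samples were not compared in the fit because of the low mean. Without a filter on low values the log2-fold change was -0.85 (95% interval -1.78 to 0.081; limma, adjusted p = 0.156). MACS-sorted samples held an estimated 5 to 28.8 fragments of Arc, so differences among them rest on few reads. The lower level of Arc accompanied lower satellite glia and large-diameter neuron markers in MACS-sorted samples, and the part of these cells in the result was not tested.

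Npas4, a transcription factor induced by neuronal activity, was close to the limit of detection. It was listed at 0.0194, 0.103, 0.0163 and 0.0859 FPKM in intact samples, at 0, 0, 0.326 and 0.442 FPKM in unsorted replicates 1 to 4, and at 0.0935, 0.121, 0.295 and 0.153 FPKM in MACS-sorted samples. These values correspond to an estimated 0 to 25.3 fragments a sample. Unsorted replicates 3 and 4 were the highest of the 12 samples, and replicates 1 and 2 of the same group were listed at 0, which in these values can be a failed estimate. The gene failed the filter in every comparison. Without a filter, limma gave adjusted p values of 0.566 for unsorted against intact, 0.79 for MACS-sorted against unsorted and 0.0814 for MACS-sorted against intact DRG, so no difference was detectable at this depth.

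Ier2, a nuclear protein named as an immediate early response gene, was measured at 4.50, 2.64, 2.53 and 2.91 FPKM in intact samples, at 10.3, 10.03, 27.9 and 31.8 FPKM in unsorted samples and at 10.4, 6.21, 10.5 and 12.6 FPKM in MACS-sorted samples. Both dissociated groups lay above all intact samples. Ier2 rose in unsorted against intact DRG by 2.47 ± 0.40 on the log2 scale (limma, adjusted p = 0.00514), and in MACS-sorted against intact DRG by 1.62 ± 0.24 (limma, adjusted p = 0.000762). The ratio of mean FPKM was 6.36 and 3.16, respectively. Between MACS-sorted and unsorted samples the ranges overlapped and the difference of -0.85 had a 95% interval from -1.74 to 0.045 (limma, adjusted p = 0.108).

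Ier3, an immediate early gene that restrains cell death and modulates ERK and NF-kB signalling, had another pattern. Its levels were 14.7, 11.99, 11.8 and 10.6 FPKM in intact samples, 11.8, 12.7, 18.4 and 18.9 FPKM in unsorted samples and 23.8, 24.7, 23.1 and 26.1 FPKM in MACS-sorted samples. All MACS-sorted samples were above all others, whereas unsorted replicates 1 and 2 lay within the intact range. The difference between unsorted and intact DRG was 0.31 on the log2 scale, with a 95% interval from -0.083 to 0.70 (limma, adjusted p = 0.223). Ier3 rose in MACS-sorted against unsorted samples, by 0.69 ± 0.15 (limma, adjusted p = 0.0046), a ratio of means of 1.58, and in MACS-sorted against intact DRG by 1.00 ± 0.11 (limma, adjusted p = 0.000127), a ratio of 1.99. With a criterion of 1 in place of 0.5 for the log2 ratio of means, neither difference was called. It was also the gene with the smallest spread among MACS-sorted samples, with a highest-to-lowest ratio of 1.13, and 7.23% of 11392 genes had a smaller SD of log2 values.

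Btg2, an antiproliferative protein that also recruits deadenylases to mRNA, was measured at 3.56, 2.50, 2.77 and 2.70 FPKM in intact samples, at 7.47, 7.73, 21.7 and 34.5 FPKM in unsorted samples and at 11.2, 5.18, 14.5 and 16.1 FPKM in MACS-sorted samples. Its intact range overlapped neither of the dissociated groups. Btg2 rose in unsorted against intact DRG by 2.30 ± 0.46 (limma, adjusted p = 0.0106) and in MACS-sorted against intact DRG by 1.88 ± 0.32 (limma, adjusted p = 0.00144). The mean in unsorted DRG was 17.8 ± 12.9 FPKM (SD, n = 4), and MACS-sorted samples differed from it by -0.42 (95% interval -1.60 to 0.76; limma, adjusted p = 0.547).

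Zfp36 encodes tristetraprolin, which binds AU-rich elements of cytokine and early-response transcripts and promotes their decay. Levels were 6.39, 4.36, 4.64 and 5.26 FPKM in intact samples, 15.9, 14.4, 62.0 and 95.2 FPKM in unsorted samples and 22.8, 6.68, 22.8 and 18.2 FPKM in MACS-sorted samples. Zfp36 had the highest mean of the 9 genes in unsorted DRG, at 46.9 ± 39.1 FPKM (SD, n = 4), and its ratio of means to intact DRG was 9.08. Without unsorted replicate 4 the mean was 30.8 FPKM and the ratio 5.96, and in unsorted replicates 1 and 2 Dusp1 was higher than Zfp36. It rose by 2.72 ± 0.57 on the log2 scale in unsorted against intact DRG (limma, adjusted p = 0.0128) and by 1.61 ± 0.36 in MACS-sorted against intact DRG (limma, adjusted p = 0.00638). MACS-sorted and unsorted samples differed by -1.10, with a 95% interval from -2.54 to 0.34 (limma, adjusted p = 0.188), the widest interval of the tested genes in that comparison. The exons of Zfp36 overlap the antisense gene Gm44710 by 125 bases, and the strand setting used in counting is not given in the sources used here.

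Dusp1, a nuclear phosphatase that acts mainly on p38 and JNK, was measured at 11.9, 8.87, 8.74 and 9.85 FPKM in intact samples, at 17.7, 18.2, 37.5 and 47.8 FPKM in unsorted samples and at 24.5, 17.4, 26.2 and 26.6 FPKM in MACS-sorted samples. All dissociated samples, sorted or not, exceeded the intact ones. Dusp1 rose by 1.49 ± 0.31 in unsorted against intact DRG (limma, adjusted p = 0.0127) and by 1.25 ± 0.16 in MACS-sorted against intact DRG (limma, adjusted p = 0.000268). The 2 dissociated groups differed by -0.24 (95% interval -0.95 to 0.47; limma, adjusted p = 0.564), and the sign of this difference turned, to 0.024, without unsorted replicate 4.

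Dusp6, a cytoplasmic phosphatase specific for ERK, was not called in any comparison. It was measured at 9.77, 7.91, 8.10 and 7.65 FPKM in intact samples, at 9.34, 9.07, 15.4 and 18.3 FPKM in unsorted samples and at 5.49, 8.39, 10.7 and 8.34 FPKM in MACS-sorted samples. All groups overlapped. The log2 difference was 0.57 (95% interval 0.069 to 1.08; limma, adjusted p = 0.0953) in unsorted against intact DRG, -0.63 (-1.22 to -0.040; limma, adjusted p = 0.0758) in MACS-sorted against unsorted samples, and -0.055 (-0.47 to 0.36; limma, adjusted p = 0.846) in MACS-sorted against intact DRG.

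Socs3, an inhibitor of JAK-STAT signalling downstream of the IL-6 family receptors, was measured at 4.02, 3.63, 2.78 and 2.66 FPKM in intact samples, at 11.2, 12.4, 38.6 and 56.1 FPKM in unsorted samples and at 8.81, 10.04, 14.7 and 15.8 FPKM in MACS-sorted samples. Both dissociated groups were above the intact range. Socs3 had the largest log2-fold change of the tested members in unsorted against intact DRG, 2.83 ± 0.49 (limma, adjusted p = 0.00661), and rose by 1.86 ± 0.22 in MACS-sorted against intact DRG (limma, adjusted p = 0.00016). The ratios of mean FPKM were 9.04 and 3.77. MACS-sorted samples differed from unsorted ones by -0.96, with a 95% interval from -2.07 to 0.14 (limma, adjusted p = 0.136).

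**Figure D2:**
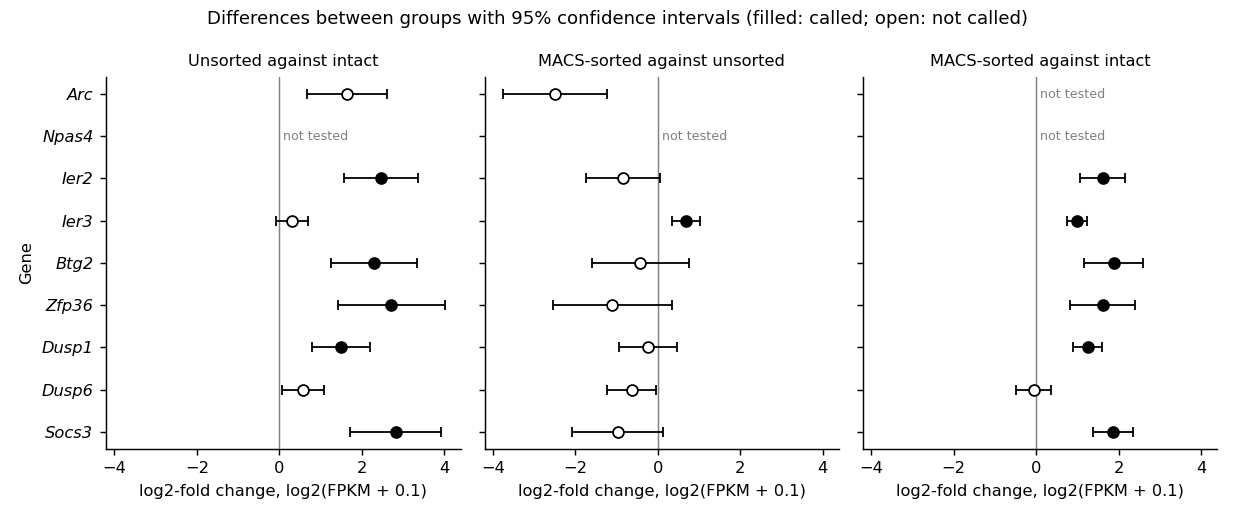
Log2-fold change on the log2(FPKM + 0.1) scale with its 95% confidence interval (limma) for each gene, in the 3 comparisons of groups of 4 samples; filled points were called and open points were not. Intervals of Ier2, Btg2, Zfp36, Dusp1 and Socs3 lie above 0 against intact DRG in both the left and the right panel, and Ier3 is the one filled point in the middle panel.

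The median log2-fold change of the tested members was 1.97 in unsorted against intact DRG, -0.74 in MACS-sorted against unsorted samples and 1.61 in MACS-sorted against intact DRG, where the medians of all genes tested were 0.013, -0.041 and -0.038. In intact DRG the levels ran from Ier3 (12.3 ± 1.74 FPKM, SD, n = 4) through Dusp1 (9.83 ± 1.45), Dusp6 (8.36 ± 0.958), Zfp36 (5.16 ± 0.903), Socs3 (3.27 ± 0.659), Ier2 (3.15 ± 0.917) and Btg2 (2.88 ± 0.468) to Arc (0.662 ± 0.0482), with Npas4 lowest. Ranges of neighbours in this order overlapped, except between Dusp6 and Zfp36, Zfp36 and Socs3, Btg2 and Arc, and Arc and Npas4. Unsorted DRG had the order Zfp36, Dusp1, Socs3, Ier2, Btg2, Ier3, Dusp6, Arc and Npas4, and the gaps below Dusp6 and below Arc were the ones without overlap. MACS-sorted samples had Ier3 at the top (24.5 ± 1.29 FPKM), followed by Dusp1, Zfp36, Socs3, Btg2, Ier2 and Dusp6, whose ranges overlapped from neighbour to neighbour, and then by Arc, below the range of Dusp6 and overlapping that of Npas4.

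The unsorted samples were split in a like way by all 9 genes. In each gene unsorted replicate 4 was the highest and replicate 3 the next, an order of the top pair, in either arrangement, that 17.4% of 12160 expressed genes had, and 20.6% of genes were highest in replicate 4. Highest-to-lowest ratios among the 4 unsorted samples were 6.61 for Zfp36, 4.99 for Socs3, 4.61 for Btg2, 3.96 for Arc, 3.17 for Ier2, 2.70 for Dusp1, 2.02 for Dusp6 and 1.60 for Ier3. The SD of the log2 values exceeded that of 95.03% of expressed genes for Ier3, the least variable of the 8 genes above the filter, and that of 99.6% for Zfp36, the most variable. In intact samples the same SD was larger than in 39.1% (Dusp6) to 83.4% (Ier2) of genes.

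**Figure D3:**
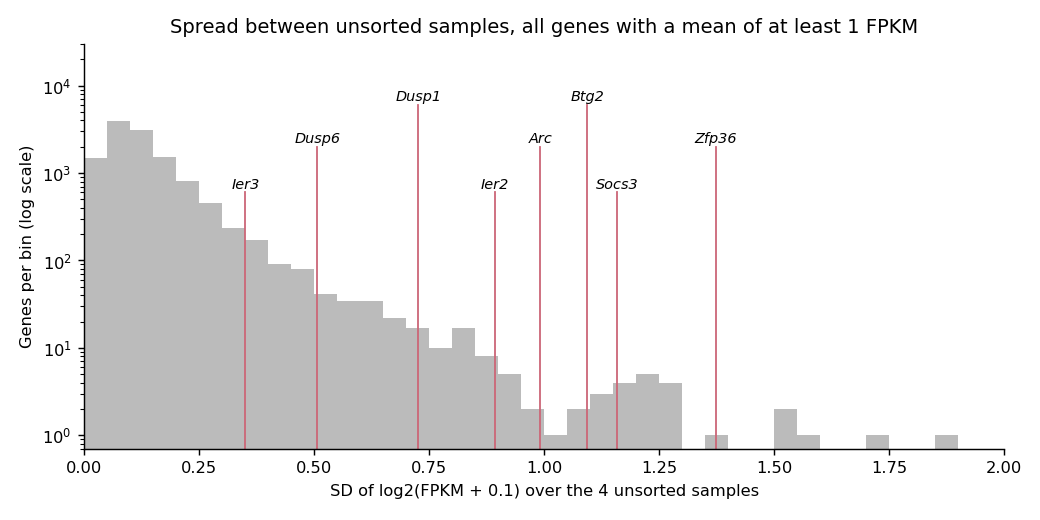
Number of genes (log axis) by SD of log2(FPKM + 0.1) over the 4 unsorted samples, for the 12160 genes whose mean in that group reached 1 FPKM, with red lines at the SD of 8 of the 9 genes (Npas4 was below the minimum). Every line stands in the right tail, from Ier3, which exceeds 95.03% of genes, to Zfp36, which exceeds 99.6%.

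Pairs of samples were compared over the genes averaging 5 FPKM or more over the 12 samples. The median absolute log2 difference was 0.133 between unsorted replicates 3 and 4 and 0.0528 between replicates 1 and 2. It was 0.082 to 0.133 for the other unsorted pairs. Replicates 1 and 2 formed the closest pair within any group, and with both averaged as 1 sample the same number of genes, 5, was called higher than in intact DRG. Marker sums differed between these samples. Replicates 3 and 4 had 169 and 224 FPKM of the 7 fibroblast markers, compared with 340 and 331 FPKM in replicates 1 and 2. For the 8 macrophage markers the sums were 10.6 and 13.4 FPKM against 22.1 and 20.6 FPKM, and for 6 neutrophil markers 38.2 and 42.1 FPKM against 87.8 and 91.7 FPKM. Red blood cell markers summed to 112 and 173 FPKM against 369 and 400 FPKM, satellite glia markers to 2362 and 2169 FPKM against 2730 and 2724 FPKM, pericyte and smooth muscle markers to 67.3 and 69.5 FPKM against 89.2 and 86.4 FPKM, endothelial markers to 52.7 and 57.6 FPKM against 66.4 and 65.3 FPKM, and nociceptor markers to 2696 and 2758 FPKM against 2817 and 2766 FPKM. Higher sums in replicates 3 and 4 were seen for markers of large-diameter neurons (1069 and 1008 FPKM against 884 and 875 FPKM) and of skeletal muscle (105 and 89.2 FPKM against 74.6 and 70.1 FPKM). Pvalb is on both of these lists, so their sums are not independent of each other. Schwann cell markers did not separate the pairs. The 8 general neuronal markers summed to 6034 and 5505 FPKM in replicates 3 and 4 and to 5440 and 5478 FPKM in replicates 1 and 2. The part of these cell types in the spread of the 9 genes was not tested.

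Among MACS-sorted samples, replicate 2 was the lowest for Zfp36, Btg2, Ier2 and Dusp1, and replicate 1 was the lowest for Arc, Npas4, Dusp6 and Socs3. Of 11392 expressed genes, 22.5% were lowest in replicate 2 and 21.8% in replicate 1. MACS-sorted replicates 3 and 4 were the 2 highest for 6 of the 9 members and for 14.7% of expressed genes. The SD of log2 values exceeded that of 96.0% of these genes for Zfp36, 94.8% for Btg2 and 7.23% for Ier3, with the other members above the filter in between. In replicate 2 the 8 endothelial markers, such as Pecam1 and Cdh5, summed to 16.2 FPKM compared with 55.6 to 89.8 FPKM in the other 3 samples. Markers of satellite glia (90.1 against 118 to 199 FPKM), large-diameter neurons (94.2 against 126 to 174 FPKM), Schwann cells (530 against 581 to 1219 FPKM) and skeletal muscle (3.46 against 8.78 to 13.1 FPKM) also had their lowest sum there. The lists of large-diameter neurons and skeletal muscle share Pvalb. The part of these cells in the result was not tested. Without MACS-sorted replicate 2, as without any other single sample, 6 genes were called higher than in intact DRG.

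The families of the 9 genes hold further members with related functions. Of 3 tested genes of the tristetraprolin family, Zfp36 was the 1 called in unsorted against intact DRG. In MACS-sorted against intact DRG its relatives Zfp36l1 (3.32 ± 1.74 against 8.31 ± 2.11 FPKM, SD, n = 4) and Zfp36l2 (2.25 ± 1.20 against 6.995 ± 1.14 FPKM) fell, by 1.48 and 1.74 on the log2 scale (limma, adjusted p = 0.0257 and 0.00377), where Zfp36 rose. Both also fell in MACS-sorted against unsorted samples, by 1.88 and 1.95 (limma, adjusted p = 0.00463 and 0.00129). MACS-sorted replicate 2, lowest for Zfp36, was the lowest for Zfp36l1 and Zfp36l2 as well, at 0.962 and 0.916 FPKM.

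In the BTG and TOB family, 2 of 4 tested genes rose in unsorted against intact DRG: Btg2 and, to a smaller degree, the antiproliferative Btg1, by 0.59 ± 0.14 (limma, adjusted p = 0.0192). Tob2 fell by 0.52 ± 0.13 in MACS-sorted against unsorted samples (limma, adjusted p = 0.00984). Of 4 IER genes, Ier2 was the 1 called in unsorted against intact DRG and Ier2 and Ier3 were the 2 called in MACS-sorted against intact DRG. Only 2 of the 4 exceeded the 5 FPKM that a call required. Ier5, at a mean of 1.34 FPKM in intact and 1.68 FPKM in unsorted DRG, had adjusted p values of 0.194, 0.0707 and 0.226 (limma) in the 3 comparisons. Of 8 MAPK phosphatases tested, Dusp1 was the 1 called in unsorted and in MACS-sorted against intact DRG, and 0 were called between the dissociated groups, where 4 had an unadjusted p below 0.05 (limma), all lower. Only 5 of the 8 exceeded the 5 FPKM that a call required. Dusp4, a nuclear phosphatase of ERK, was too low to be called (0.526 FPKM in MACS-sorted, 2.41 FPKM in unsorted DRG), with a log2 difference of -2.07 ± 0.29 between these groups (limma, adjusted p = 0.000327). In unsorted against intact DRG Dusp4 differed by 0.55 ± 0.12 (limma, adjusted p = 0.0133). Dusp8 differed there by 0.39 ± 0.060 (limma, adjusted p = 0.00423), with a ratio of means short of the 0.5 required.

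Of 8 SOCS genes, Socs3 and Cish rose in unsorted against intact DRG, Cish by 0.60 ± 0.13 (limma, adjusted p = 0.0142). Cish, which restrains STAT5 signalling, fell in MACS-sorted against unsorted samples, by 1.55 ± 0.14 (limma, adjusted p = 2.1e-05). Socs2, a regulator of growth hormone signalling, rose in MACS-sorted samples, from 12.6 ± 1.11 FPKM in unsorted and 15.8 ± 2.54 FPKM in intact DRG to 28.1 ± 2.91 FPKM (SD, n = 4), and its adjusted p (limma) was 1.2e-05 and 0.00093. Socs7 rose by 0.54 ± 0.089 in MACS-sorted against unsorted samples (limma, adjusted p = 0.000873). Whether family members differed from each other in their change was not tested.

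**Figure D4:**
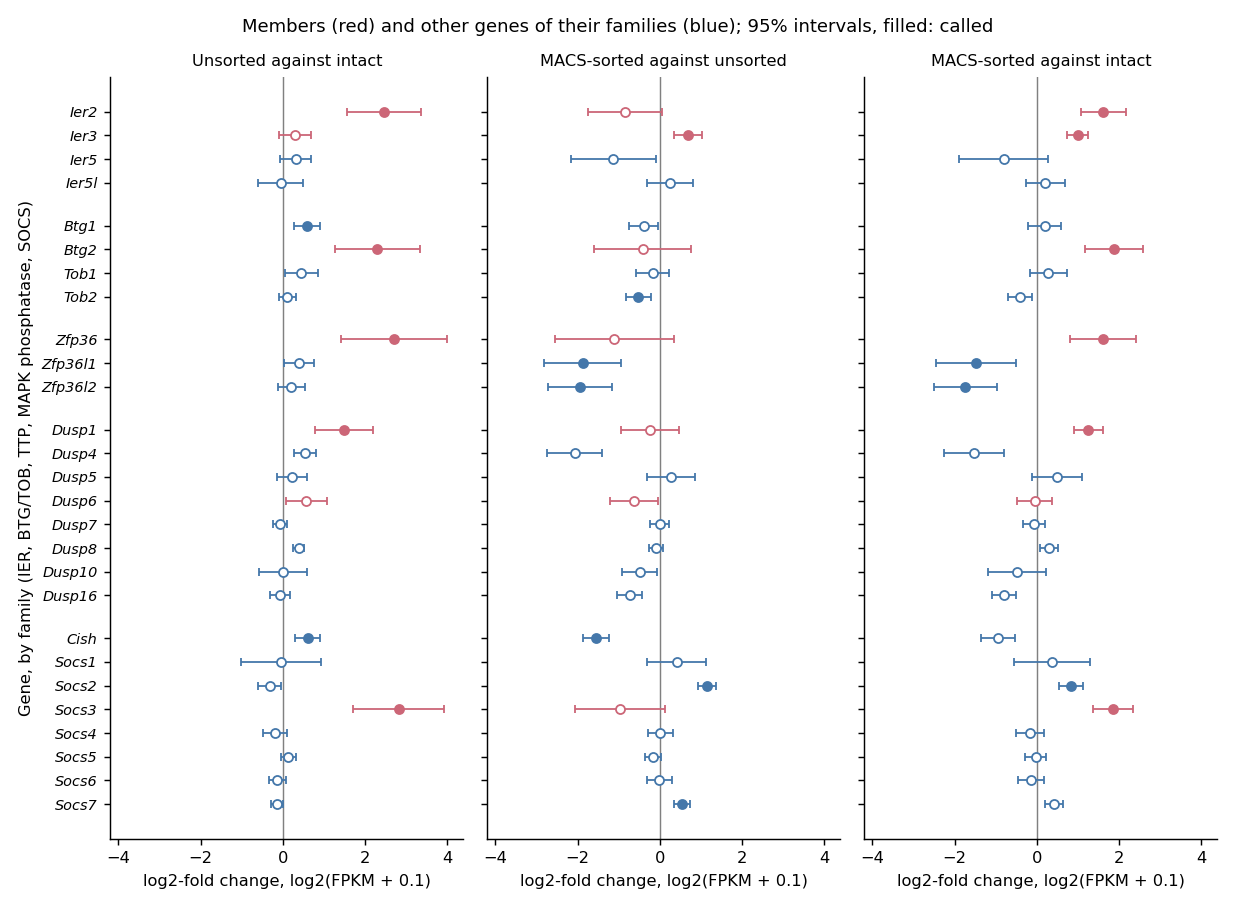
Log2-fold change with 95% confidence interval (limma) for the members (red) and the other tested genes of the IER, BTG/TOB, tristetraprolin (TTP), MAPK phosphatase and SOCS families (blue) in the 3 comparisons; filled points were called. Zfp36 lies at 1.61 in the right panel, where Zfp36l1 and Zfp36l2 lie at -1.48 and -1.74.

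The lists of the kinase and transcript decay pathways on which these proteins act were read against the share of all genes called. Of 16 ERK, p38 and JNK kinases, 0 were called in unsorted against intact DRG, with 5 at an unadjusted p below 0.05 (limma), and 1 of them, Mapk9, was listed at 0 in intact replicate 1, whereas the 3 further intact samples had 41.2 to 44.8 FPKM. A count of 0 in so short a list is close to the 4.29% and 2.76% of all genes called. In MACS-sorted against unsorted samples Map2k3, an activator of p38, rose by 0.52 ± 0.12 and Mapkapk2, a kinase that phosphorylates tristetraprolin, fell by 1.501 ± 0.084 (limma, adjusted p = 0.00632 and 1.3e-06). Mapkapk2 was also the 1 kinase called in MACS-sorted against intact DRG, lower by a log2 value of -1.38 (limma, adjusted p = 0.000305). None of 10 SRF, TCF and CREB factors or of 7 NF-kB feedback inhibitors was called in any comparison (limma), with 2 to 3 of each at an unadjusted p below 0.05, but only 4 to 5 of the former and 3 of the latter exceeded the 5 FPKM that a call required. Below that level, Bcl3 differed by 0.67 and Elk4 by -0.76 in MACS-sorted against unsorted samples (limma, adjusted p = 0.0156 and 0.00898), and Elk3 by 0.61 and Elk4 by -0.85 in MACS-sorted against intact DRG (limma, adjusted p = 0.0183 and 0.0134). Of 7 Sprouty and Spred genes, inhibitors of Ras and ERK signalling, 0 were called in unsorted against intact DRG, with 5 at an unadjusted p below 0.05 (limma), and Spred1 was the 1 called in the other 2 comparisons, falling by 1.23 ± 0.11 in MACS-sorted against unsorted samples and by 1.03 ± 0.11 against intact DRG (limma, adjusted p = 2.5e-05 and 0.00011). Of 12 genes of the CCR4-NOT and decapping machinery, through which Zfp36 and Btg2 act, 0 were called in unsorted against intact DRG, with 2 at an unadjusted p below 0.05 (limma), and 1, the poly(A) binding protein Pabpc1, rose in MACS-sorted against unsorted and intact DRG, by 0.75 ± 0.20 and 0.84 ± 0.21 (limma, adjusted p = 0.0121 and 0.0129).

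Among 10 tested genes of the IL-6 family and JAK-STAT pathway, whose signal Socs3 limits, the receptor Cntfr rose by 0.54 ± 0.084 and the ligand Cntf fell by 1.16 ± 0.24 in unsorted against intact DRG (limma, adjusted p = 0.00459 and 0.0127). In MACS-sorted samples Cntf was listed at 0 in all 4 samples, compared with means of 18.3 FPKM in unsorted and 41.7 FPKM in intact DRG. By the criteria Cntf was called lower in MACS-sorted samples against both other groups. A listed 0 can be a failed estimate in these values, as may hold for Mapk9 in 1 intact sample. Whether the values of Cntf are such estimates was not tested. The 4 genes, Lifr, Osmr, Il6st and Stat3 rose in MACS-sorted against intact DRG and Cntfr fell. Osmr, the receptor of oncostatin M, reached 22.5 ± 9.42 FPKM in MACS-sorted samples, compared with 8.59 ± 0.668 FPKM in unsorted and 10.955 ± 1.048 FPKM in intact DRG (SD, n = 4), and was the 1 gene of the list called higher than in unsorted DRG (limma, adjusted p = 0.00106).

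Of the immediate early transcription factors, 8 of 17 tested genes rose in unsorted against intact DRG (Fos, Fosb, Jun, Junb, Egr1, Nr4a1, Klf2 and Klf4) and 0 fell, with a median log2-fold change of 1.22. Fosb, a partner of Jun proteins in AP-1, had the largest change, from 0.338 ± 0.0305 to 31.0 ± 29.6 FPKM (SD, n = 4; limma, adjusted p = 0.0016), and it too was highest in unsorted replicates 3 and 4, at 35.8 and 71.1 FPKM compared with 8.93 and 8.32 FPKM. Between MACS-sorted and unsorted samples 6 of these factors were called lower, with Egr2 at -4.31 ± 0.95 (limma, adjusted p = 0.00435), and Myc was the 1 called higher, at 0.51 ± 0.13 (limma, adjusted p = 0.0101). Against intact DRG, 8 of 16 were higher in MACS-sorted samples and 1, Egr2, was lower. Of 9 tested activity-regulated genes of neurons, Arc included, 0 were called in unsorted against intact DRG, and 4 had an unadjusted p below 0.05 (limma), all higher. Only 5 of the 9 exceeded the 5 FPKM that a call required. In MACS-sorted samples 4 were called higher in each comparison, with Nptx2, a neuronal pentraxin, at 88.8 FPKM compared with 37.1 FPKM in unsorted and 34.4 FPKM in intact DRG (limma, adjusted p = 3.7e-05 and 6.4e-05).

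The genes with the nearest profile over the 12 samples were sought among all genes averaging 5 FPKM or more, by the root-mean-square difference of log2 values after each gene's mean was removed. A member was the nearest gene for 3 of the 9 genes. Btg2 and Ier2 were the nearest to each other, at 0.288, and Ier2 was the nearest gene to Socs3, at 0.321, with the non-member Junb in second place for Btg2, Ier2 and Socs3. Zfp36 was nearest to Egr1 (0.361), Dusp1 to Jun (0.286), Dusp6 to Klf6 (0.249), Arc to Nr4a1 (0.47) and Npas4 to Gadd45g (0.496). Ier3 was nearest to Gm13889 (0.186) and Jund (0.19), and no member was among its nearest 3 genes. Genes with large excursions have larger differences by this measure, and the profiles share the same 12 libraries.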

How the data were processed

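Polyadenylated RNA of 12 samples was sequenced from directional libraries. According to the submitters' processing notes, the authors used TopHat2, SAMtools and Cufflinks 2.1.1 with build mm10, and deposited FPKM values per gene, with 1 column a sample. The strand setting in counting and read totals of single samples are not given in the sources used here. From the smallest steps between FPKM values, depth was estimated at 13600000 to 19400000 fragments a sample.

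Groups were compared pairwise, 8 samples a fit, with limma 3.58.1 (R 4.3.3) with an intensity trend, two-sided, on log2(FPKM + 0.1), keeping genes whose mean over the 8 samples reached 1 FPKM. Benjamini-Hochberg adjustment covered all genes tested. Fold changes on this scale understate changes of low genes. The calling criteria were those of the study, with limma in place of CuffDiff. The study, which found red blood cell contamination in MACS-sorted samples, also removed erythrocyte genes that were higher there. That step was not applied to the calls given here. The limma p-values set the difference of group means against the spread within both groups, moderated by a trend over all genes tested. Unsorted and MACS-sorted samples pooled 2 and 8 mice, so their spread is between pools and not between single mice. The labels give no preparation day or batch.

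All 9 members were named. From each pathway list the called gene with the largest change in each direction was named, together with relatives of the members where described. The other called factors and receptors listed by name were added after their values were seen. The members and lists were chosen with earlier results of these data known.

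Alternatives were other pseudocounts, filters, scalings and criteria, a fit on all 12 samples, a replicate block, and omission of single samples. Same-numbered samples did not deviate together (correlations -0.185 to 0.0883), so numbers were not taken as pairs. Python 3.11.15 was used for the remaining steps.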

Additional observations from a re-analysis of the deposited data

How the results depend on the processing

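Of 428 values of single members under the alternatives, 410 kept their direction and their side of the threshold, 5 lost it, 8 passed it and 5 turned sign. The counts of 5 and 6 genes called higher against intact DRG held when any single sample was left out, and the first became 6, with Arc, at a minimum mean of 1 FPKM in the higher group. The count called lower in MACS-sorted against unsorted samples, 0, became 1 in the fit on all 12 samples (Dusp6), 1 with unsorted replicates 1 and 2 averaged (Dusp6), 1 with a minimum mean of 1 FPKM in the higher group (Arc) and 3 with the replicate block (Ier2, Dusp6 and Socs3, limma adjusted p = 0.0214, 0.0174 and 0.0207), although the numbers do not pair the samples. It ranged from 0 to 2 when single samples were left out, with 1 without unsorted replicate 1 (Socs3) and 2 without unsorted replicate 2 (Ier2 and Dusp6). The count called higher there, 1, became 0 with a log2 ratio beyond 1. The block changed no other call of a member. Sign changes were confined to differences that were not called: Dusp1 in MACS-sorted against unsorted samples (0.024 without unsorted replicate 4, range without single samples -0.45 to 0.024) and Dusp6 in MACS-sorted against intact DRG (0.0013 with median-ratio size factors, 0.086 with quantile normalization, and 0.021 without intact replicate 1 and 0.12 without MACS-sorted replicate 1, in a range without single samples of -0.19 to 0.12). The cause of these changes was not tested. Leaving out unsorted replicate 4 moved the uncalled differences between MACS-sorted and unsorted samples toward 0 for Btg2 (-0.00046), Ier2 (-0.56), Zfp36 (-0.61) and Socs3 (-0.55). Depth limits Npas4 in all groups and Arc in MACS-sorted samples.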
